A study of Mus musculus with 9 samples.

Results

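Blood vessel cells of the control mouse thyroid carry several endothelial labels in the deposited annotation, and the comparison here sets the label EC1 against the label EC4 within the control animals. Members were taken by label alone: every cell labelled EC1 or EC4 in the 3 control pools, which gave 661 EC1 and 268 EC4 cells, 929 of 3616 control cells and of 10186 cells in the series. EC1 held 191, 182 and 288 cells and EC4 held 96, 63 and 109 cells in the pools RW 1, RW 2 and RW 3. The series asked what antibody blockade of Notch signalling does in the adult thyroid, and measured unique molecular identifiers (UMIs, 1 per captured transcript copy) in single cells with a droplet 3' assay. All mice were male C57BL/6, aged 10 to 12 weeks in the series text and 10 to 14 weeks in the treatment protocol. The 3 control pools (RW) came from mice given 1 intraperitoneal dose of an anti-ragweed isotype antibody at 40 mg/kg, and each pool joined the thyroids of 6 mice. The labels give 7 days for every treatment. The 6 blockade pools, used below only to repeat the comparison, came from mice given antibodies against Jag1 and Jag2 (aJ1aJ2, 20 mg/kg each) or against Notch1 and Notch2 (aN1aN2, 5 and 10 mg/kg).

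Thyroid follicles are wrapped by a dense bed of fenestrated capillaries, whose endothelium exchanges iodide and thyroid hormone with the blood. Plvap builds the diaphragms of the fenestrae. Endothelial cells are known by the adhesion proteins Pecam1 and Cdh5, by Kdr and Flt1, which bind VEGF, and by the angiopoietin receptor Tek with its partner Tie1. The 4 genes given as markers of these cells are Esm1 (endocan, a secreted proteoglycan known from tip cells of sprouting vessels), Emcn (endomucin, a sialomucin of the capillary and venous surface), Inhbb (the beta B subunit of activin B) and Igfbp3 (a carrier of insulin-like growth factors).

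EC4 cells were shallow. Median UMIs per cell were 4968, 4679 and 4864.5 in EC1 of RW 1, RW 2 and RW 3 and 1159.5, 1003 and 880 in EC4, with medians of 2154, 2059.5 and 2130.5 genes against 647.5, 620 and 539. Summed over cells, EC1 held 1537991, 1337713 and 2252564 UMIs and EC4 held 139355, 80730 and 128247. The median mitochondrial share of a cell's UMIs was 6.31, 5.23 and 4.77% in EC1 and 13.9, 12.0 and 9.27% in EC4, so that the pool medians of the labels did not overlap. The other endothelial labels had median depths of 2730 to 4037 UMIs in EC2 and 5175.5 to 7011 in EC3. All depths here are those of cells with at least 500 UMIs, the lowest total in the table. A single cell barcode among the EC1 and EC4 cells occurred in more than 1 control pool.

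**Figure D1:**
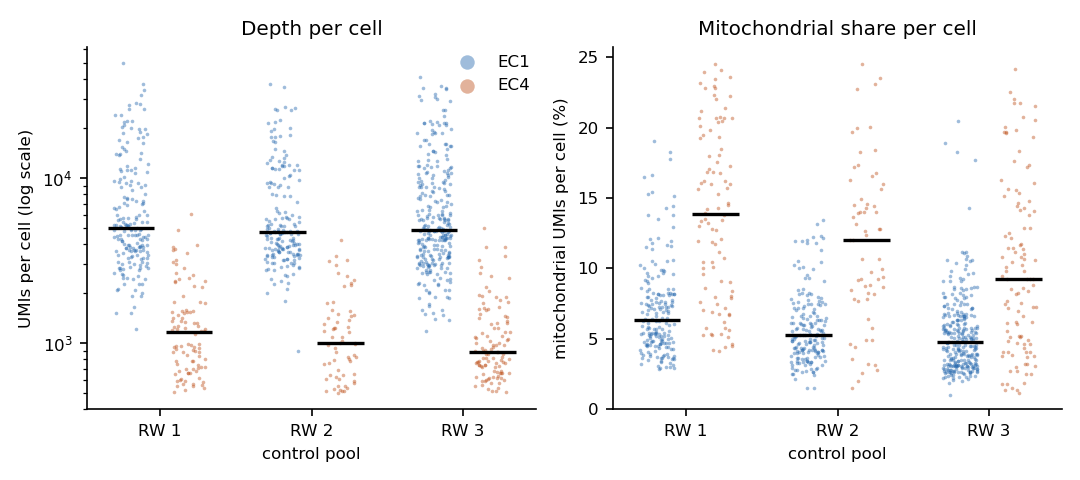
UMIs per cell (left, log axis) and the mitochondrial share of each cell's UMIs in percent (right) for every EC1 and EC4 cell of the 3 control pools. Each point is a cell and each black bar the median of its pool and label; EC4 medians lie at 880 to 1159.5 UMIs and EC1 medians at 4679 to 4968.

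The endothelial name of both labels was checked against a list of 24 pan-endothelial genes. With every cell thinned to 500 UMIs, an EC1 cell carried a UMI of a median of 7 of the 24 genes and an EC4 cell of 6.5, while the label T1 had a median of 0. T1 cells were lymphocytes by their markers, since 85.3% carried the T cell receptor gene Cd3g and 7.69% carried Pecam1 before thinning. At least 3 of the 24 genes were present in 99.2% of EC1 cells, 95.5% of EC4 cells and 0.699% of T1 cells. No EC1 or EC4 cell lacked all 24. The lymphatic regulator Prox1 was at 0 UMIs in EC4 of every control pool and at 117.5 ± 23.9 CPM (SD, n = 3 pools) in EC3. CPM here are counts scaled to the same total in every sum of a pool and label, with TMM factors. Because of this scaling, a CPM value is a share of the label's RNA and not an amount per cell. UMIs per cell are given separately.

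Counts were summed per pool and label and tested with edgeR's quasi-likelihood test, with the pool as a block and differences coded as EC4 minus EC1. How the cells were labelled is not given in the sources used here, and the labels may rest on these same expression values. The test thus describes how steadily the labels differed over 3 pools and is no independent evidence that they are different cell types. Of 7500 genes tested, 476 (6.35%) were called at a Benjamini-Hochberg adjusted p under 0.05. EC4 had the higher level in 170 of them (2.27% of the genes tested) and the lower level in 306 (4.08%). The CPM of the 3 pools did not overlap between labels for 869 genes (11.6%) with EC4 above and 1310 genes (17.5%) with EC1 above. The count of calls fell without RW 1 (232) or RW 3 (231) and was 575 without RW 2, and DESeq2 called 259 in place of edgeR's 476. Without RW 3 the fit holds only the pools whose titles carry numbers of 1 series, RW 1 and RW 2.

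Because EC4 is shallow, every cell was also thinned to 500 UMIs before summing, which gave each cell the same weight. On thinned counts 1274 genes could be tested and 67 (5.26%) were called, 44 (3.45%) higher and 23 (1.81%) lower in EC4. This count was 19 without RW 1, 31 without RW 3, 42 without the pool block and 24 with DESeq2. An adjusted p could be smaller on thinned counts than on all UMIs although the difference was smaller too, as for Igfbp7. Adjusted p on thinned counts are thus not read as a measure of how steady a difference was over pools. Of the 476 genes called on all UMIs, 333 were tested after thinning and 57 were called again in the same direction. Among the 57 were Gm42418, mitochondrial genes, Tg and Hspg2 on the higher side and haemoglobin genes, Id3, Rgcc and Igfbp7 on the lower side.

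**Figure D2:**
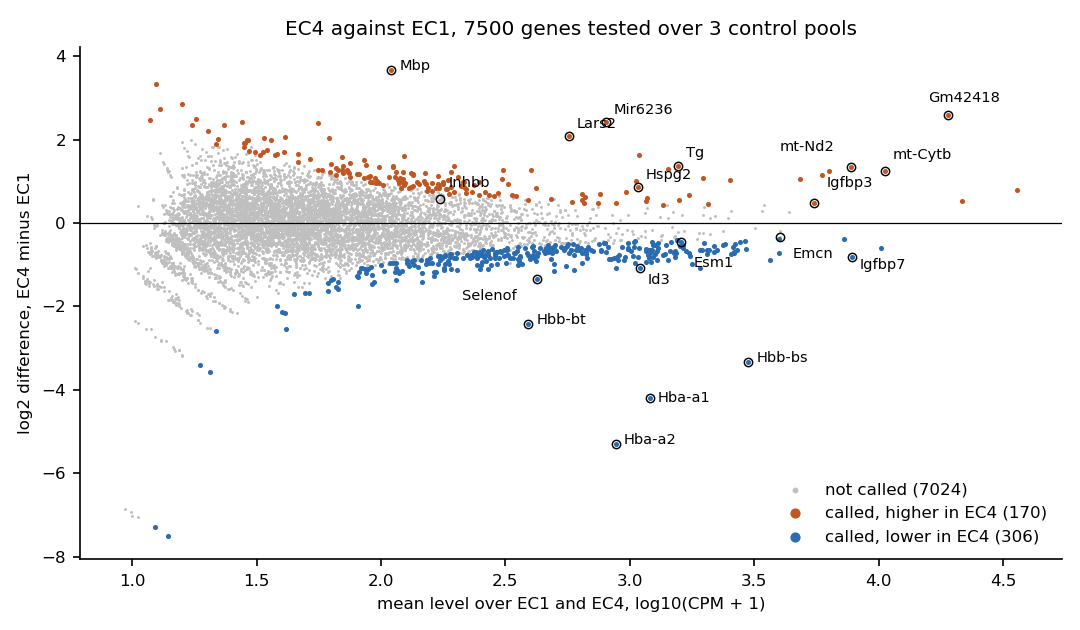
Difference between the labels (log2, EC4 minus EC1) against mean level (log10 of CPM + 1) for the 7500 genes tested over 3 control pools, with 170 called genes higher and 306 lower in EC4. Named genes are ringed; genes with no UMI in EC4 take fitted values that depend on the prior count.

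Of the 4 marker genes, Igfbp3 rose and Esm1 fell in EC4, while Emcn and Inhbb were not called. Esm1 (chr13:113209659-113218098, GRCm38) stood at 1622, 1627 and 2284 CPM in EC1 and 954.2, 1468 and 1692 CPM in EC4. The ranges overlapped by the EC4 value of RW 3, and every pool had less in EC4. The log2 difference was -0.45 ± 0.13 (SE, edgeR adjusted p = 0.0405), and on counts thinned to 500 UMIs it was -0.25 ± 0.17 (adjusted p = 0.461). At 1000 UMIs, which leaves out 142 of the 268 EC4 cells, it was -0.5 (adjusted p = 0.0494). Esm1 was not called without RW 1 (adjusted p = 0.398) or RW 3 (adjusted p = 0.141).

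Emcn (chr3:137341067-137432185) stood at 4186, 4225 and 4957 CPM in EC1 and 3521, 3129 and 4013 CPM in EC4. All 3 EC1 values lay above all 3 EC4 values, but the difference of -0.33 ± 0.11 did not pass the test (edgeR adjusted p = 0.0881). Igfbp3 (chr11:7206086-7213923) rose in EC4, from 5120, 4958 and 3823 CPM to 6377, 6896 and 5810 CPM, without overlap. Its log2 difference was 0.47 ± 0.11 (edgeR adjusted p = 0.0134) on all UMIs and 0.57 ± 0.12 (adjusted p = 0.000227) on thinned counts. It was not called without RW 1 (adjusted p = 0.0821) or RW 3 (adjusted p = 0.35).

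Inhbb (chr1:119415465-119422248) was scarce, with 138.2, 160.1 and 119.9 CPM in EC1 and 143.9, 192.6 and 274 CPM in EC4. It was higher in EC4 in 3 of 3 pools, but the ranges overlapped and the difference of 0.57 ± 0.24 did not pass the test (edgeR adjusted p = 0.163), with 69 Inhbb UMIs in the EC4 cells of the control pools. In the blockade pools Inhbb rose by 0.6 ± 0.15 (edgeR adjusted p = 0.0029), and it was higher in EC4 in 6 of 6 pools.

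At 500 UMIs per cell an Esm1 UMI was found in 42.4 ± 5.79% of EC1 cells and 35.0 ± 4.21% of EC4 cells (SD, n = 3 pools). Emcn was found in 86.0 ± 2.81 and 70.6 ± 2.01%, Igfbp3 in 67.4 ± 2.23 and 68.0 ± 6.35%, and Inhbb in 6.23 ± 1.74 and 7.66 ± 2.22%. In T1 cells, which should lack these genes, Esm1, Emcn and Inhbb were at 0% and Igfbp3 at 2.38 ± 4.12% after the same thinning. Median depths before thinning were 4813 UMIs in EC1, 970.5 in EC4 and 4378 in T1. Without thinning the shares with an Esm1 UMI were 77.3 ± 4.72% in EC1 and 46.3 ± 2.75% in EC4. Of the 4 genes only Emcn did not overlap between the labels at 500 UMIs, at 83.0 to 88.5% of EC1 and 68.3 to 71.9% of EC4 cells, and at 1000 UMIs, without 142 of the EC4 cells, it overlapped.

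The 4 markers set EC1 and EC4 apart from the other endothelial labels of the control pools. On a scale shared by the 12 sums of 4 labels and 3 pools, Esm1 was at 1877 ± 378.2 CPM in EC1, 1450 ± 398.5 in EC4, 91.4 ± 47.3 in EC3 and 44.3 ± 63.9 in EC2. EC1 and EC4 overlapped in Esm1, as did EC3 and EC2. Igfbp3 was at 6731 ± 688.3 CPM in EC4, 4721 ± 738.3 in EC1, 703.2 ± 213.4 in EC3 and 337 ± 351.8 in EC2. Plvap was at 4390 ± 561.3 CPM in EC1, 3952 ± 90.9 in EC4, 728.8 ± 108 in EC3 and 461.8 ± 655 in EC2. Fabp4, a fatty acid carrier of capillaries, was at 31327 ± 4504 CPM in EC2 and at 1697 ± 159.2 in EC1 and 1519 ± 165.9 in EC4. The labels may rest on these same values, as their clustering is not given in the sources used here, so the order is a description.

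Among genes tested, the 5 whose log2 CPM followed Esm1 most closely over the 12 sums were Exoc3l2 (Pearson r = 0.986), Plscr2 (0.984), Ramp3 (0.979), Tsc22d1 (0.976) and Col13a1 (0.973). Exoc3l2 averaged 439 CPM in EC1, 525.5 in EC4, 51 in EC3 and 32.2 in EC2. The 12 sums share pools and differ in depth, and r is given only as the measure of likeness.

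**Figure D3:**
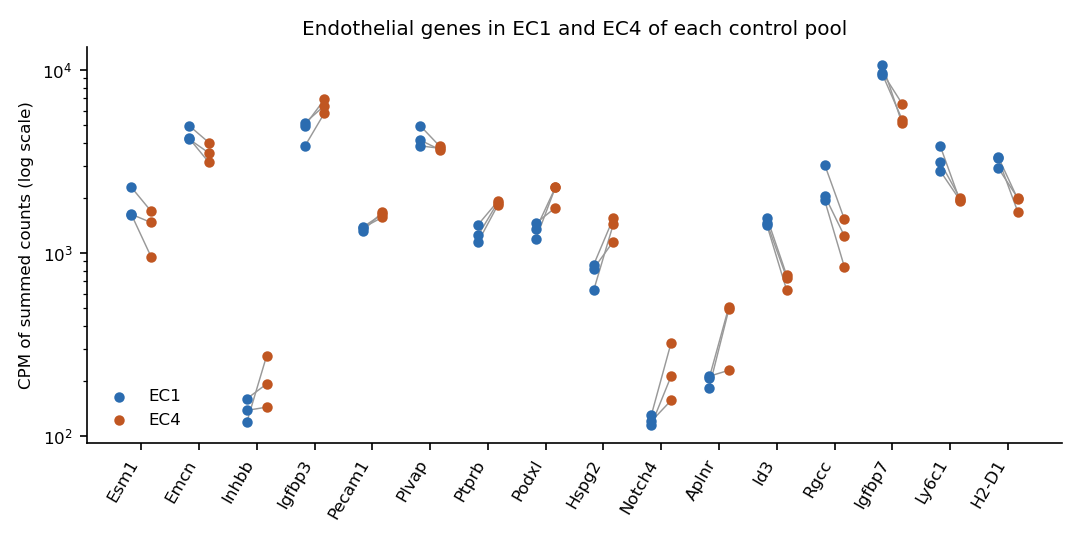
CPM (log axis) of 16 endothelial genes in EC1 and EC4 of each control pool. Each point is the sum of a pool and label, and grey lines join the labels of a pool; Id3, Rgcc, Igfbp7, Ly6c1 and H2-D1 fall from EC1 to EC4 in all 3 pools, and Igfbp3, Ptprb, Podxl, Hspg2, Notch4 and Aplnr rise.

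All 24 pan-endothelial genes were tested in the control pools, where 2 rose, 0 fell and the median difference was 0.26, against 2.27% higher, 4.08% lower and a median of -0.03 over all 7500 genes. In the blockade pools 11 of 23 rose and 0 fell, where 484 of all 4367 genes rose, and in control cells of 1000 to 5000 UMIs 8 of 21 rose and 0 fell, where 344 of all 3882 genes rose. Pecam1 averaged 1357 ± 34.3 CPM in EC1, and its difference of 0.26 did not pass the test (edgeR adjusted p = 0.215). Cdh5 differed by 0.01 (adjusted p = 0.98) and the VEGF receptor Kdr by 0.29 (adjusted p = 0.169).

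Ptprb (VE-PTP, a phosphatase that holds Tek and VE-cadherin signalling in check) rose from 1248, 1428 and 1149 CPM in EC1 to 1886, 1914 and 1821 CPM in EC4. Its log2 difference was 0.56 ± 0.12 (edgeR adjusted p = 0.0048), and it was not called without RW 1 (adjusted p = 0.0868) or RW 3 (adjusted p = 0.0887). The other pan-endothelial gene called was Eng, a co-receptor for TGF-beta and BMP9, at 0.42 ± 0.13 (adjusted p = 0.0476). Eng was not called without RW 1 (adjusted p = 0.41) or RW 3 (adjusted p = 0.376), nor on thinned counts (adjusted p = 0.215).

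Together the 13 lists of endothelial genes held 150 tested genes, of which 17 rose and 10 fell, with a median of 0.19, against 2.27% higher, 4.08% lower and a median of -0.03 over all 7500 genes. After thinning, 7 of these 27 were called again, where 57 of all 476 calls were. The 7 were Hspg2, Id3, Igfbp3, Igfbp7, Podxl, Ptprb and Rgcc. The calls Aplnr, Hspg2, Id3, Igfbp7 and Rgcc held whichever pool was left out. Bambi, 1 of the 10 that fell, had 4 UMIs in EC4 and passed the filter on low counts only through EC1, and is given as values only. Among the 27 calls, 19 were lost without RW 1, 3 without RW 2 and 21 without RW 3. Over all genes the calls numbered 232 without RW 1, 575 without RW 2 and 231 without RW 3, in place of 476.

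In the list of fenestrae, caveolae and junctions, 21 genes were tested, 2 rose, 1 fell and the median was 0.01, against 2.27% higher and 4.08% lower over all genes. Podxl (podocalyxin, an anti-adhesive sialomucin of the vessel lumen) rose from 1346, 1454 and 1190 CPM to 2287, 1769 and 2289 CPM, by 0.68 ± 0.13 (edgeR adjusted p = 0.00202; 0.0653 without RW 3). Mcam, an endothelial adhesion molecule, rose by 0.68 ± 0.2 (adjusted p = 0.0451), with values of 0.226 without RW 1 and 0.393 without RW 3. Cavin3, a coat protein of caveolae, fell by 0.5 on the log2 scale (adjusted p = 0.0411; 0.182 without RW 1 and 0.183 without RW 3). Plvap did not pass the test, at 4312 CPM on average in EC1 and 3739 in EC4 (adjusted p = 0.341).

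Of 14 tested genes of VEGF and angiopoietin signalling, Ptprb rose and Rgcc fell, and the median was 0.38, where 2.27% of all genes were higher and 4.08% lower. In control cells of 1000 to 5000 UMIs 7 of 12 rose and 1 fell, where 344 of 3882 genes rose, and in the blockade pools 11 of 12 rose and 1 fell, where 484 of 4367 genes rose. Rgcc (a cell cycle regulator known to be induced by VEGF in endothelium) stood at 1936, 2057 and 3034 CPM in EC1 and 840.6, 1240 and 1531 CPM in EC4, without overlap. It fell by 0.98 on the log2 scale (SE 0.13, edgeR adjusted p = 2.9e-05) and by 0.76 on thinned counts (adjusted p = 0.000207). In the list of tip cell and sprouting genes, 20 were tested, 4 rose and 2 fell (over all genes, 2.27% and 4.08%). In the blockade pools 13 of 17 rose and 1 fell, where 484 of all 4367 genes rose and 424 fell. The 4 that rose in the control pools were Aplnr, Col4a1, Igfbp3 and Mcam. Aplnr, the apelin receptor, stood at 206.9, 212.2 and 184 CPM in EC1 and 507.4, 228.7 and 491.6 CPM in EC4, a log2 difference of 1.06 ± 0.2 (adjusted p = 0.00204; thinned 0.0904). The EC4 value of RW 2 lay just above the EC1 values, and those of RW 1 and RW 3 well above them. The 2 that fell were Esm1 and Ramp3, a partner of the adrenomedullin receptor, and Ramp3 fell by 0.51 on the log2 scale (adjusted p = 0.0382; 0.202 without RW 1 and 0.155 without RW 3).

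In activin, BMP and TGF-beta signalling, 24 genes were tested, 3 rose and 2 fell, beside 2.27% and 4.08% of all genes. The 2 that fell were Id3 and Bambi. Bambi passed the filter on low counts only through EC1, which leaves Id3 alone as a fall to set against that share. Id3, a target of BMP signalling that blocks basic helix-loop-helix factors, stood at 1560, 1456 and 1419 CPM in EC1 and 757.3, 734.1 and 628.6 CPM in EC4. It fell by 1.07 on the log2 scale (SE 0.13, edgeR adjusted p = 1.26e-05) and by 0.87 on thinned counts (adjusted p = 0.000308). Its relatives Id1 (-0.34, adjusted p = 0.246) and Id2 (0.19, adjusted p = 0.813) did not pass the test. Bambi, a decoy receptor that dampens BMP and TGF-beta signals, stood at 54.6, 78.5 and 77.6 CPM in EC1 and at 15.1, 0 and 16.1 CPM in EC4, where 4 UMIs in all were counted. The receptors Bmpr2 (0.51, adjusted p = 0.0348) and Eng and the signal carrier Smad5 (1.09, adjusted p = 0.0169) rose. Without RW 1 the adjusted p was 0.19 for Bmpr2 and 0.148 for Smad5, and without RW 3 it was 0.299 and 0.118.

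Among 7 tested genes of the insulin-like growth factor system, 3 rose and 1 fell, beside 2.27% and 4.08% of all genes. Igfbp7, an abundant secreted protein of vessel basement membrane, stood at 9641, 9440 and 10641 CPM in EC1 and 6536, 5356 and 5101 CPM in EC4. It fell by 0.81 on the log2 scale (SE 0.12, edgeR adjusted p = 0.000128) and by 0.73 on thinned counts (adjusted p = 4.62e-09), while its relative Igfbp3 rose. The insulin receptor Insr rose by 0.65 ± 0.19 (adjusted p = 0.0374; 0.109 without RW 1 and 0.534 without RW 3). Igf1, at 27 UMIs in EC4, rose by 1.27 ± 0.36 (adjusted p = 0.0363) and was not called with any pool left out (0.0871 to 0.183).

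Of 13 tested basement membrane genes 3 rose and 0 fell, with a median of 0.42, against 2.27% higher over all genes, and 2 of the 3 calls were lost without RW 1 or without RW 3. Hspg2 (perlecan, a heparan sulphate proteoglycan) stood at 860.7, 820.9 and 624.4 CPM in EC1 and 1545, 1155 and 1434 CPM in EC4. Its log2 difference was 0.86 ± 0.14 (edgeR adjusted p = 0.000325) and 0.78 on thinned counts (adjusted p = 0.00221). The collagen chain Col4a1 rose by 0.46 ± 0.12 (adjusted p = 0.0243; 0.274 without RW 1 and 0.327 without RW 3), and its partner Col4a2 differed by 0.12 (adjusted p = 0.634). The laminin chain Lamb2 rose by 0.65 ± 0.18 (adjusted p = 0.0304; 0.321 without RW 1 and 0.113 without RW 3).

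Of 14 tested Notch pathway genes 1 rose, beside 2.27% of all genes. This was the endothelial receptor Notch4, from 115.3, 120.5 and 130.5 CPM to 212, 156.5 and 322.3 CPM. The difference was 0.94 ± 0.22 (edgeR adjusted p = 0.0108; 0.0613 without RW 1 and 0.23 without RW 3). Notch1 (0.43, adjusted p = 0.136), the ligand Jag2 (0.75, adjusted p = 0.0673) and the target Hes1 (0.02, adjusted p = 0.962) did not pass the test. In the arterial list 1 of 14 was called, Ltbp4 (0.49, adjusted p = 0.0341; 0.304 without RW 1 and 0.302 without RW 3). In the venous list 1 of 9 was called, Aplnr. The only lymphatic gene tested, Flt4, was not called.

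Of 12 tested genes of capillary lipid handling, 2 fell, Car4 and Cd300lg, and 0 rose, beside 4.08% lower and 2.27% higher over all genes. Car4, a membrane carbonic anhydrase, fell by 0.65 on the log2 scale (edgeR adjusted p = 0.0265; 0.0959 without RW 2 and 0.0502 without RW 3). Cd300lg, a lectin receptor of capillary endothelium, fell by 0.48 (adjusted p = 0.0311; 0.0758 without RW 1 and 0.244 without RW 3). Of 8 genes of the flow response, 2 rose and 1 fell, to be set against the same shares. They were the anticoagulant receptor Thbd (0.57, adjusted p = 0.0348; 0.0767 without RW 1 and 0.512 without RW 3), the mechanosensitive channel Piezo1 (1.12, adjusted p = 0.0224; 0.23 and 0.136) and the scaffold Slc9a3r2 (-0.42, adjusted p = 0.0411; not called with any pool left out, 0.0581 to 0.232).

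Of 19 tested genes of MHC class I and interferon, 6 fell and 0 rose in the control pools, with a median of -0.35, against 4.08% lower over all genes. In the blockade pools 5 of 18 rose and 5 fell, where 484 of all 4367 genes rose and 424 fell, and neither H2-D1 (-0.24, edgeR adjusted p = 0.0652) nor Ly6c1 (-0.23, adjusted p = 0.0778) was called. H2-D1, a classical class I heavy chain, stood at 2922, 3290 and 3364 CPM in EC1 and 1999, 1685 and 1974 CPM in EC4, and fell by 0.75 on the log2 scale (SE 0.12, edgeR adjusted p = 0.000387; thinned 0.0113). Ly6c1, a surface protein of capillary endothelium, stood at 2803, 3123 and 3837 CPM in EC1 and 1946, 1998 and 1934 CPM in EC4 and fell by 0.72 (adjusted p = 0.00066; thinned 1.03e-05). Ly6a, Ifitm3, Psmb8 and Bst2 fell by 0.65 to 0.76, of which Psmb8 was lost without RW 1 (adjusted p = 0.109) and Bst2 without RW 3 (adjusted p = 0.249). H2 and Ly6 genes have near-identical relatives, so their counts are uncertain. Of 4 tested class II genes (4.08% lower over all genes), H2-Aa and H2-Ab1 fell with 17 UMIs each in EC4, and H2-Aa was lost without RW 3 (adjusted p = 0.382). Beside this, the summed level of 11 macrophage markers was 144.6 to 366.6 CPM in EC1 and 36.1 to 151.5 CPM in EC4, with Cd68, Adgre1, Mrc1 and Ptprc at 0 in EC4. The part of macrophage RNA in these calls was not tested.

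Among the 55 of the 57 genes called on all and on thinned counts that also moved one way in all 3 pools and had at least 10 UMIs in every pool of the higher label, the highest difference was that of Gm42418 (chr17:39846958-39848788, GRCm38, annotated as a lincRNA), a locus known to overlap ribosomal RNA sequence. It stood at 5338, 7118 and 4117 CPM in EC1 and 34177, 26224 and 37521 CPM in EC4. The log2 difference was 2.59 ± 0.17 (edgeR adjusted p = 1.44e-10) and 2.53 ± 0.1 on thinned counts. AY036118 lies on the opposite strand wholly within Gm42418, so the counts of these genes cannot be told apart unless strand was used, and it rose by 1.62 ± 0.14 (adjusted p = 3.86e-08). Mir6236 (chr9:110281287-110281409, a miRNA hairpin gene) rose by 2.42 ± 0.16 (adjusted p = 1.44e-10), and Lars2 (chr9:123366927-123462666, the mitochondrial leucyl-tRNA synthetase) by 2.08 ± 0.15 (adjusted p = 1.62e-09). A 3' assay of this kind does not measure the mature miRNA. A list named nuclear transcripts had 6 tested genes, of which 4 rose, beside 2.27% of all genes. The 4 were Gm42418, AY036118, Neat1 and Malat1. Gm42418 and AY036118 lie at the locus that overlaps ribosomal RNA sequence, so the count is not one of nuclear RNA alone. The nuclear RNAs Neat1 (1.09 ± 0.2, adjusted p = 0.00146) and Malat1 (0.52 ± 0.14, adjusted p = 0.0224) rose less, Malat1 losing its call without RW 1 (adjusted p = 0.427) or RW 3 (adjusted p = 0.438).

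Per cell, the amount of Gm42418 and AY036118 differed by less than the spread between pools. An EC1 cell carried 44.9 ± 12.3 UMIs of Gm42418 and AY036118 and an EC4 cell 43.6 ± 6.35 (SD, n = 3 pools), a ratio of 1.03. Transcripts outside the classes named here were 6.31 times more numerous in EC1, at 6207 ± 320.4 against 984.3 ± 91.6 UMIs per cell. The ratio of EC1 to EC4 was 2.86 for mitochondrial transcripts, 3.96 for Malat1 and Neat1, 2.21 for Tg, 8.77 for ribosomal protein transcripts and 79.8 for globin transcripts, which came from few cells. Classes thus differed in how far they were reduced in an EC4 cell, and Gm42418 with AY036118 was reduced least among these classes. Outside these classes, over all cells of the 3 pools, Mir6236 averaged 2 UMIs in an EC1 cell and 1.71 in an EC4 cell, and Lars2 1.56 and 1.17. The higher CPM of Mir6236 and Lars2 in EC4 were thus larger shares and not larger amounts per cell.

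**Figure D4:**
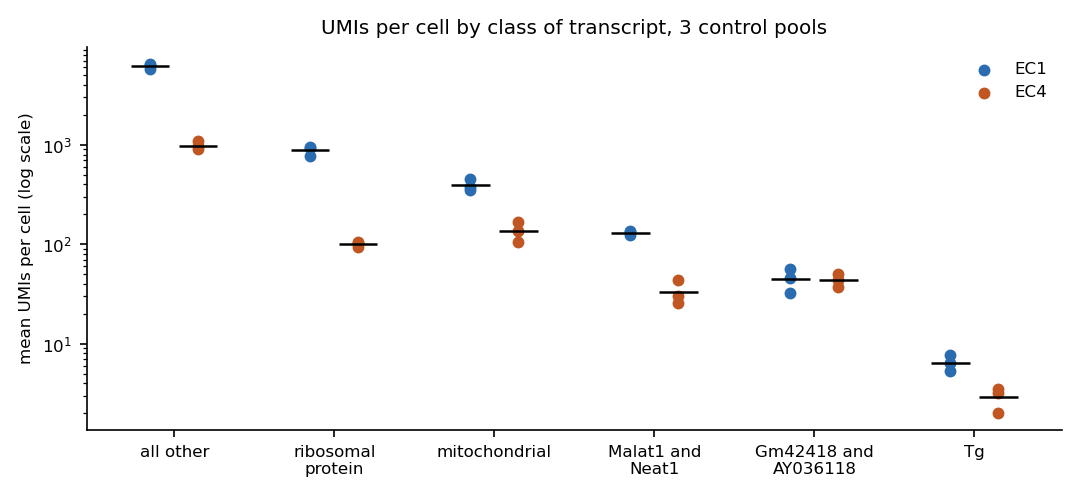
Mean UMIs per cell (log axis) by class of transcript in EC1 and EC4. Each point is 1 of the 3 control pools and each bar their mean; Gm42418 and AY036118 lie at 32.1 to 56.6 UMIs in EC1 and 37.4 to 50.1 in EC4, while ribosomal protein transcripts lie at 773.8 to 947.8 and 94 to 106.1.

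Transcripts of the mitochondrial genome were a larger share of EC4. Of 13 protein-coding mitochondrial genes 12 rose and 0 fell, with a median of 1.14, beside 2.27% of all genes higher and a median of -0.03. Cytochrome b (mt-Cytb) stood at 6663, 6037 and 6125 CPM in EC1 and 15911, 13901 and 14707 CPM in EC4, a difference of 1.24 ± 0.11 (edgeR adjusted p = 5.09e-08). The complex I subunits mt-Nd2, mt-Nd3 and mt-Nd4 rose by 1.33, 1.29 and 1.24 and the complex IV subunits mt-Co2 and mt-Co3 by 1.26 and 1.27. On thinned counts 11 of 12 rose, with a median of 1.4, beside 3.45% of all genes higher and a median of -0.01. Gm28437, a pseudogene on chromosome 1 that rose by 1.36, shares 100% of its 20-base runs with mt-Co3, so its count is uncertain.

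The difference in mitochondrial share varied with the depth of the cells compared. EC4 cells of 500 to 1000 UMIs, a range with 1 EC1 cell, had median shares of 15.7, 12.2 and 10.7%. Among cells of 1000 to 2000 UMIs, the median share was 16, 14 and 9.27% in EC4 and 7.48, 5.53 and 4.77% in EC1, where only 6, 1 and 14 cells fell in that range. Among cells of 2000 to 5000 UMIs it was 7.03, 8.23 and 4.87% in EC4 and 8.01, 6.12 and 5.72% in EC1, so the labels overlapped. That range held 19, 11 and 11 EC4 cells and 90, 102 and 136 EC1 cells. In those same cells Gm42418 and AY036118 still took 2.82, 2.92 and 4.73% of UMIs in EC4 against 0.694, 0.66 and 0.455% in EC1. In the fit on cells of 1000 to 5000 UMIs 9 of 13 mitochondrial genes rose and 0 fell, with a median of 0.66, where 344 of all 3882 genes rose. Most EC1 cells of that fit had at least 2000 UMIs and most EC4 cells had fewer. Restricting both labels to cells with at most 10% mitochondrial UMIs left 2 of 13 mitochondrial genes called, with a median of 0.34, where 92 of all 7135 genes rose. That restriction selects cells on the quantity compared, so the lower count follows in part from the selection.

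Cytosolic ribosomal protein genes were lower in EC4 as summed: 62 of 85 tested fell, 0 rose, and the median was -0.61, beside 4.08% of all genes lower. This list was added after values had been seen. Rpl15 fell by 1.12 and Rplp0 by 1.07 on the log2 scale, and Rps16 (1879, 1674 and 1992 CPM in EC1 and 939.1, 950.8 and 1104 CPM in EC4) by 0.89 (SE 0.13, edgeR adjusted p = 7.16e-05). After thinning to 500 UMIs, 1 of 80 was called, Rps16, and the median was -0.17, beside 1.81% of all genes lower and a median of -0.01. In unthinned cells of 1000 to 5000 UMIs, 68 of 84 fell with a median of -0.71, where 363 of all 3882 genes fell. Many ribosomal protein genes have near-identical pseudogenes, so single counts are uncertain.

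Transcript length ran through the calls in both directions. The longest annotated transcript of protein-coding nuclear genes had a median of 6325 bases among those that rose in EC4, 1597 bases among those that fell and 3491 bases among all tested. Genes that rose spanned a median of 68 kb and had 17 exons, against 6.46 kb and 4 exons for genes that fell. The median GC content was alike, at 48.7 and 50.4% against 49.3% over all. Of the nuclear genes that rose, 11.5% were of TEC, a class of annotated transcripts that await experimental support, against 0.749% of all nuclear genes tested.

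Split by length, genes under 1 kb had a median log2 difference of -0.58, genes of 1 to 2 kb -0.47, of 2 to 4 kb -0.11, of 4 to 8 kb 0.23 and of at least 8 kb 0.45. Of 331 genes under 1 kb, 80 fell and 1 rose, and of 483 genes of at least 8 kb, 45 rose and 0 fell. The order held in each pool: from the shortest to the longest class the median moved from -0.56 to 0.4 in RW 1, -0.46 to 0.14 in RW 2 and -0.62 to 0.56 in RW 3. It held on thinned counts (-0.23 to 0.45), in cells of 1000 to 5000 UMIs (-0.75 to 0.72) and in the blockade pools (-0.36 to 0.37). Called genes were also more highly expressed than all genes tested, with a median in EC1 of 531.1 CPM for genes that fell, 89.5 for genes that rose and 46.5 for all. The part of transcript length in the differences of single endothelial genes was not tested.

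**Figure D5:**
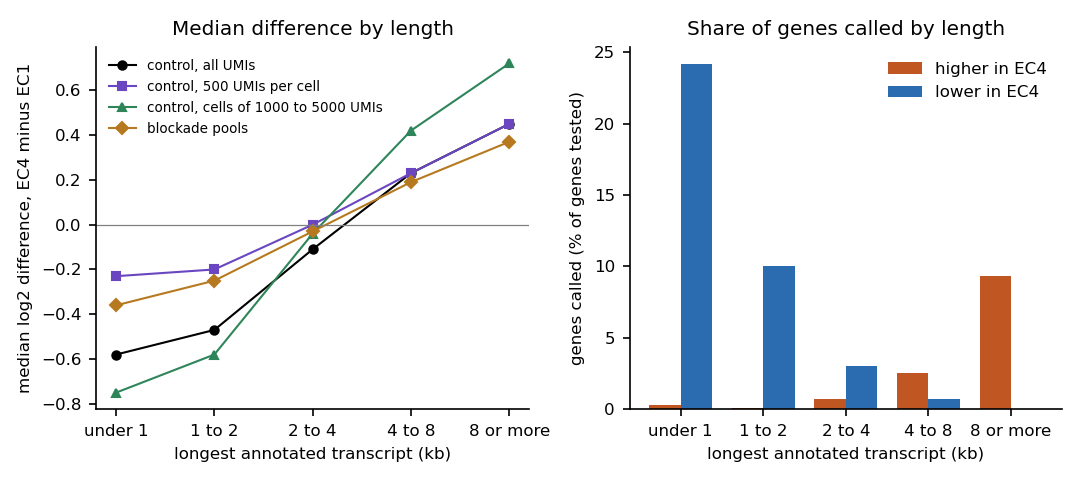
Left, median log2 difference (EC4 minus EC1) of protein-coding nuclear genes by length of the longest annotated transcript, in the control pools on all UMIs, on 500 UMIs per cell and in cells of 1000 to 5000 UMIs, and in the blockade pools. Right, percent of tested genes called higher or lower in EC4; the shortest class has 80 of 331 genes lower and the longest 45 of 483 higher.

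Tg, the thyroglobulin gene of thyrocytes, rose in EC4 from 984.1, 902.5 and 709.4 CPM to 2340, 2648 and 1781 CPM, by 1.37 ± 0.12 (edgeR adjusted p = 3.86e-08; thinned 1.5 ± 0.17). At 500 UMIs per cell a Tg UMI was found in 49.6 ± 5.9% of EC4 cells, 24.4 ± 6.81% of EC1 cells and 18.2 ± 2.81% of T1 cells. An EC4 cell held 2.91 ± 0.777 Tg UMIs and an EC1 cell 6.44 ± 1.17. The 5 richest cells held 70% of the Tg UMIs of EC4 in RW 2, and 38.2 and 36.7% in RW 1 and RW 3. The 18 thyrocyte markers summed to 821.4 to 1096 CPM in EC1 and 1974 to 2768 CPM in EC4. Tg was the 1 of 3 tested that was called, 15 of the 18 had a UMI in EC4, and Slc26a4, Duox2 and Cdh1 were at 0. The part of free RNA or of thyrocyte RNA in this rise was not tested. Pth, the parathyroid hormone gene and the 1 of 3 tested parathyroid and C cell markers called, rose by 1.6 ± 0.3 (adjusted p = 0.00182; 0.148 without RW 3), beside 2.27% of all genes. It stood at 66.1, 40.4 and 75.3 CPM in EC1 and 189.3, 24.1 and 338.5 CPM in EC4, so that RW 2 went the other way, and 1 cell held 22 of the 42 EC4 UMIs of RW 3.

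Haemoglobin transcripts made the largest falls among the 55 genes that met the rule for named genes, and these transcripts came from few cells. Hbb-bs stood at 2480, 11867 and 2243 CPM in EC1 and 575.6, 637.9 and 145.1 CPM in EC4, a log2 difference of -3.33 ± 0.24 (edgeR adjusted p = 1.62e-09). Hba-a1 and Hba-a2, near-identical copies whose counts are uncertain, had differences of -4.19 and -5.31. Hbb-bt overlapped between the labels, at -2.43, and was not called without RW 2 (adjusted p = 0.0516). In each pool the 5 richest EC1 cells held 94.5, 98.2 and 94.5% of all EC1 globin UMIs, and the median EC1 cell had 1, 2 and 1. Only 4, 4 and 5 EC1 cells and 0, 1 and 0 EC4 cells had over 1% globin UMIs.

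Without those cells Hbb-bs was higher in EC4 by 1.08 ± 0.2 (edgeR adjusted p = 0.000798) and Hbb-bt by 2.04 ± 0.44 (adjusted p = 0.00291), while Hba-a1 (0.6, adjusted p = 0.272) and Hba-a2 (-0.35, adjusted p = 0.709) were not called. No other erythroid marker was tested, and Alas2 was at 0 in EC4. Mbp, a myelin gene called higher in EC4 (3.66 ± 0.36), rested on 1 EC4 cell with 69 of the 73 EC4 UMIs and 1 EC1 cell with 90 of 98, both of RW 3, and could not be tested without that pool. It was the only Schwann cell marker tested.

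Fibroblast markers summed to 42.5 to 173.8 CPM in EC1 and 48.4 to 75.7 CPM in EC4, with Lum, Pdgfra and Col6a3 at 0 in EC4. Mural cell markers summed to 76.2 to 256 CPM in EC1 and 60.2 to 88.6 CPM in EC4, with Myh11, Pdgfrb and Cspg4 at 0 in EC4. T, NK and thymocyte markers summed to 2.32 to 17.5 and 0 to 24.1 CPM, with 10 of 13 genes at 0 in EC4, Cd3d, Cd3e and Cd3g among them. Of 32 genes of the immediate early and dissociation response 1 was called, the small heat shock protein Hspb1, which fell by 0.82 (edgeR adjusted p = 0.000585). The median was -0.4, beside 4.08% of all genes lower and a median of -0.03. On thinned counts 1 of 17 rose and 0 fell, with a median of -0.06, beside 3.45% of all genes higher. In the blockade pools 3 of 25 rose and 4 fell, with a median of 0.08, where 484 of all 4367 genes rose and 424 fell. Of 5 proliferation genes 0 were called, beside 6.35% of all genes, and of neutrophil and muscle markers the 1 tested was not called.

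Outside the globins, the rule for named genes gave further falls in EC4. Selenof, a selenoprotein of the endoplasmic reticulum, stood at 618.7, 541 and 654.6 CPM in EC1 and 219.6, 252.7 and 249.8 CPM in EC4, and fell by 1.35 (SE 0.17, edgeR adjusted p = 2.41e-05). Ubb, a polyubiquitin gene, stood at 2374, 2463 and 2951 CPM in EC1 and 1151, 1155 and 1370 CPM in EC4, and fell by 1.08 (adjusted p = 2.44e-06). Itm2b, a membrane protein of the BRICHOS family, fell by 0.88 (adjusted p = 4.02e-05), the kinase gene Sgk1 by 0.91 (adjusted p = 0.00141), the membrane protein gene Tmem59 by 0.98 (adjusted p = 0.000432) and Taldo1, an enzyme of the pentose phosphate pathway, by 0.99 (adjusted p = 0.0112). None of these 6 genes overlapped between the labels, and all 6 kept their calls with each pool left out.

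The same comparison was made in the 6 blockade pools, which share no sample with the control pools but carry labels from the same annotation. Of 4367 genes tested, 908 (20.8%) were called. This count was 181 without the pool block, 495 with DESeq2 and 587 without the pool aJ1aJ2 4. Of the 476 control calls, 434 were tested there, 422 had the same sign and 295 were called in the same direction, which is 62% of the control calls and 32.5% of the blockade calls. Mitochondrial genes rose in 13 of 13 cases, where 484 of all 4367 genes rose. Gm42418 rose by 1.78 (edgeR adjusted p = 3.21e-15), Igfbp3 by 0.5 (adjusted p = 0.000129) and Notch4 by 0.83 (adjusted p = 5.3e-06). Id3 fell by 0.62, Rgcc by 0.74 and Igfbp7 by 0.56 on the log2 scale. Igfbp3 was higher in EC4 in 6 of 6 pools. Sgk1 (-0.11, adjusted p = 0.549), Smad5 (-0.12, adjusted p = 0.716) and Bmpr2 (0.05, adjusted p = 0.818) were not called there. Whether the labels differ more in treated than in control pools was not tested.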

How the data were processed

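The authors deposited 1 table of raw UMI counts per gene and cell for all 9 pools and 1 annotation of the same cells. The submitters' processing notes name Cell Ranger and GRCm38. The version, the strand setting, the clustering and any removal of doublets are not given in the sources used here, and no doublet caller was run. In 2619 annotation lines an unquoted comma shifted the columns, which was corrected. Symbols matched 52403 of 52636 identifiers. The other 233 held 0.0293% of UMIs and stayed in the tests. Coordinates, transcript lengths and gene classes came from GENCODE M21 on GRCm38.

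Members and gene lists were chosen with earlier results of these data known. Cells of each label were summed per pool, giving 80730 to 2252564 UMIs per sum. Genes passing filterByExpr by label were normalized with TMM and tested with edgeR 4.0.16 in R 4.3.3 (quasi-likelihood, 2-sided, pool as block), and called at a Benjamini-Hochberg adjusted p under 0.05. The block pairs EC1 and EC4 because both came from the same pool of mice. With 3 pairs an exact test of a single value cannot go below p = 0.25, so none is given. Thinning drew 500 UMIs per cell without replacement. Simulated counts with known changes were used to check the fit. Pools of 1 label differed by more than sampling noise (chi-square of 1.68 to 6.9 per degree of freedom).

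Named genes were the 4 markers, the 12 highest and 12 lowest differences among genes called on all and on thinned counts with the same sign in all 3 pools and at least 10 UMIs in every pool of the higher label, then, per gene list, up to 4 called members in each direction and members that define it, and the 5 genes most like Esm1 (log2 of CPM + 10). A list of ribosomal proteins, called list members past the 4, Mbp counts per cell and the genes named for the blockade pools were chosen after values were seen. Alternatives were another tool, scaling, filter, depth and choice of cells.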

Additional observations from a re-analysis of the deposited data

Results flagged for a closer look

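The sign of the Emcn difference was not the same in every group of pools. It was lower in EC4 in all 3 control pools, with a mean difference of -901.1 CPM (EC4 minus EC1), and higher in EC4 in all 3 aN1aN2 pools, with a mean difference of 100.2 CPM, at 1716, 1576 and 1483 CPM in EC1 and 1746, 1776 and 1554 CPM in EC4. In the 3 aJ1aJ2 pools it was lower in EC4, as in the controls, at 4670, 3877 and 3343 CPM in EC1 and 2873, 3358 and 3216 CPM in EC4. The difference between the groups was not tested, and all 3 aN1aN2 pools carry numbers of a series that holds no control pool, so treatment and series cannot be told apart.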

How the results depend on the processing

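Thinning to 500 UMIs took the genes tested from 7500 to 1274. In place of 476 genes, 67 were called at 500 UMIs per cell (44 higher in EC4), 243 at 1000 UMIs (133 higher; 142 of 268 EC4 cells are left out) and 55 at 500 UMIs with equal cell numbers (43 higher). DESeq2 called 259, the fit without a filter on low counts 722 (72 higher, median difference of all genes -0.57), cells of at least 1000 UMIs 722, and the fit without mitochondrial, ribosomal protein and thyrocyte genes 298. Without the replicate block the pairing was ignored and 460 were called. Cells of 1000 to 5000 UMIs gave 707 (344 higher) and cells of at most 1% globin UMIs 521, both chosen after seeing the data. Leaving out 1 pool gave 231 to 575, and the lowest was the fit without RW 3, which holds 1 number series only.

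On thinned counts, in place of 67, the fit without the replicate block called 42, DESeq2 24, and leaving out 1 pool gave 19 to 70. In the blockade pools, in place of 908, the fit without the replicate block called 181, DESeq2 495 and 500 UMIs per cell 218, and leaving out 1 pool gave 587 to 873. Of 1019 log2 differences of 71 genes under an alternative, 804 kept direction and side of the threshold, 208 lost the call and 1 gained it. The 6 that reversed were Inhbb (-0.16) and Ramp3 (0.01) at 500 UMIs with equal cells, mt-Atp8 (-0.1) in cells of at most 10% mitochondrial UMIs, and Hba-a1 (0.6), Hbb-bs (1.08) and Hbb-bt (2.04) without cells of over 1% globin. The cause was not tested beyond the cells or genes each setting removes. Shares of cells with a UMI moved by more than 1 SD in 59 of 64 cases when the depth changed.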
